A study of Mus musculus with 2 samples.

Results

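N6-methyladenosine (m6A) is the commonest internal mark of mammalian messenger RNA, and the 10 genes described here encode proteins that place it, read it or remove it. They were taken as a list of symbols, Mettl3, Mettl14, Wtap, Rbm15, Zc3h13, Ythdc1, Ythdf2, Ythdf3, Alkbh5 and Fto, and all 10 were found among 55536 annotated mouse genes, of which 22015 were protein-coding genes of the nuclear genome. RNA came from bone-marrow-derived macrophages (BMDM) of the C57BL/6J mouse strain, which were exposed for 60 min to Lipid A (100 ng/ml), the part of bacterial lipopolysaccharide that macrophages sense. The labels describe total RNA of the nucleoplasmic fraction, depleted of ribosomal RNA, while other label fields call the same fraction nuclear. The 2 libraries form 1 group and are biological replicates, with a biosample of its own for each library but 1 shared donor label, so their spread may understate the spread between animals. The starting amount of RNA was 1 µg for replicate 1 and 500 ng for replicate 2. Sex and age were not collected, and no genetic change is named. Unstimulated cells, other times and other fractions were not analysed here, so every value below is a level in stimulated cells and none is a response to Lipid A.

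The mark is placed in the nucleus while RNA is being made. METTL3 is the catalytic subunit of the writer, METTL14 is its partner that binds the RNA, and WTAP, ZC3H13, RBM15 and further subunits hold the complex in nuclear speckles and guide it to its sites. YTHDC1 binds the mark inside the nucleus and is known for roles in splicing and export, whereas the YTHDF proteins bind it mainly in the cytoplasm, where YTHDF2 is known for recruiting the decay machinery. ALKBH5 and FTO are demethylases that take the methyl group off. Many of these genes have annotated transcripts that keep intron sequence, and nuclear RNA also holds RNA that is not yet spliced. The libraries therefore bear on how much of each gene's nuclear RNA lies in forms that would encode the full protein.

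The boundaries on which the transcript results turn are printed here, so that the unspliced forms can be located. Each line is a 5′ splice site with 10 exon bases and 20 intron bases, in the sense of the gene, read from the GENCODE M21 transcript that runs through it, and the capitals mark the first 2 intron bases. The first 3 belong to members of the writer complex with a transcript that runs from exon into intron, the next 2 to readers and the last 2 to Fto.
Rbm15 intron 1, read through in Rbm15-202: attgtccgtgGTgcgtcctaaagtccatgt
Wtap intron 6, read into in Wtap-204: cgcctgatagGTaaacaaatcatactcccc
Mettl14 intron 10, kept whole in Mettl14-204: atcaggccagGTgagacctcagttttgata
Ythdc1 intron 11, kept whole in Ythdc1-207: atgtgggaagGTtagaaacgttctttggac
Ythdf2 intron 1, kept whole in Ythdf2-202: cttggagcagGTacaggcccagcccgcatg
Fto intron 8, read into in Fto-203: ggcatgccagGTttgttctgctcagaggtg
Fto intron 7, read into in Fto-204: ggagagcatgGTaagtgcgtgaggtctgag
All 7 introns begin with GT, the usual start of an intron.

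The gene tables summed to 21256531 expected counts (estimated reads per gene, not always whole) in replicate 1 and 15643649 in replicate 2. Levels are given in TPM, a transcript's share of the library, which is corrected for length and so allows genes to be compared. Protein-coding genes of the nuclear genome held 25.4% of the TPM in replicate 1 and 18.8% in replicate 2, and over the 8622 of these genes that reached a TPM of 1 in each library the median ratio of replicate 2 to replicate 1 was -0.42 on the log2 scale. In the gene tables, a TPM of a coding gene is therefore on a lower scale in replicate 2. That shift stands behind the TPM levels below, but it was not measured in the second transcript table introduced below. All 8 macrophage markers exceeded a TPM of 10 in both libraries, with summed TPM of 3481 and 3079, while of 22 markers of 7 other blood or stromal cell types only Mmp8 reached a TPM of 1 in both. The neutrophil list that holds Mmp8 summed to 3.8 and 2.97, and the T cell markers Cd3e, Cd3d and Cd8a were at 0. In the second transcript table, a separate quantification of the same libraries, Mmp8 was at 0.720 and 0.944, and only Cd3d, at 2.80 and 4.07, reached a TPM of 1 in both. The part of these markers in the results was not tested.

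All 10 m6A genes reached a TPM of 1 in both libraries, as did 39.2% of protein-coding genes. 5 of the 10, Wtap, Ythdc1, Ythdf3, Rbm15 and Fto, reached a TPM of 10 in both. So did 14.4% of protein-coding genes, and 36.9% of the 8622 that reached a TPM of 1 in both. On the log2(TPM + 1) scale the median of the 10 was 3.65 ± 0.26 (SD, n = 2), beside 3.04 ± 0.24 for the 8622 protein-coding genes detected at a TPM of 1. From the highest to the lowest, Wtap led, Ythdc1 and Ythdf3 followed at a like level, 6 genes lay close together and Mettl14 was lowest. In such bulk RNA, fewer cells that express a gene and less RNA per cell cannot be told apart.

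**Figure D1:**
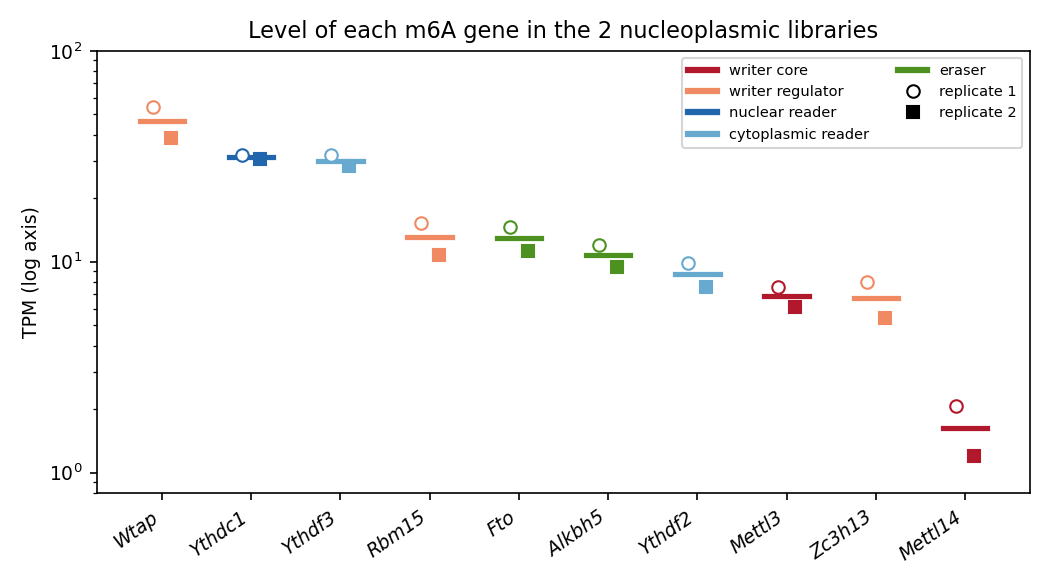
TPM of each m6A gene (log axis) in replicate 1 (open circles) and replicate 2 (filled squares), with the mean as a bar and the colour giving the role. Wtap lies at 54.17 and 38.53, Mettl14 at 2.06 and 1.20, and every gene is lower in replicate 2.

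Of the catalytic pair, Mettl14 was the lowest of the 10 genes, and Mettl3 lay in the lower part of the order. Mettl3 (chr14:52294841-52305128, minus strand) had TPM values of 7.60 (replicate 1) and 6.11 (replicate 2), and Mettl14 (chr3:123368297-123386108, minus strand) had 2.06 and 1.20. The proteins work as a heterodimer. The RNA of Mettl3 was 3.69 and 5.09 times that of Mettl14, a mean of 4.39 ± 0.992 (SD, n = 2). That fold depends on length correction, because CPM (counts scaled to library size, with no length correction) gave 1.48 ± 0.418, and it was 9.53 ± 2.22 in the second transcript table. Mettl3 was the higher gene of the pair in both libraries by each of the 3 measures. Mettl14 rested on 196 and 104 counts and Mettl3 on 232.93 and 185.05, the lowest counts among the 10. Mettl3 also overlaps Tox4 on the opposite strand over 1561 bases. Tox4 had 1323.07 and 978.95 counts, and how reads in the overlap were shared between the genes was not tested.

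The regulatory subunits spanned a wide range, with Wtap at the top of all 10 genes. Wtap (chr17:12966796-12994169, minus strand), which encodes the subunit that anchors the catalytic pair in nuclear speckles, had a TPM of 54.17 and 38.53, or 46.4 ± 11.1 (SD, n = 2). Its lower library was above the higher library of every other member, and it ranked 878 and 880 among protein-coding genes. Within a library, Wtap was 7.13 and 6.31 times Mettl3 and 26.3 and 32.1 times Mettl14. Rbm15 (chr3:107325421-107333673, minus strand), an RNA-binding adaptor, had 15.32 and 10.75. Zc3h13 (chr14:75284373-75344426, plus strand), which helps to keep the complex in the nucleus, had 8.05 and 5.39, a range that overlaps that of Mettl3. The ranges of Zc3h13 and Mettl14 did not overlap.

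Other subunits of the same complex, which are not among the 10, were lower than Wtap. Virma, the large scaffold subunit, had a TPM of 7.40 and 5.70, so that Wtap exceeded it 7.04 ± 0.396 times (SD, n = 2). The ubiquitin ligase-like subunit Cbll1 had 2.51 and 2.11. Rbm15b, the paralogue of Rbm15, had 2.20 and 2.17, and Rbm15 exceeded it 6.96 and 4.95 times. Measured per length, the writer complex thus had 1 gene far above all its partners, Wtap, and the rest between 1.20 and 15.32.

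Among the readers, Ythdc1 and Ythdf3 were alike in level and Ythdf2 was lower. Ythdc1 (chr5:86804221-86836659, plus strand) had a TPM of 32.20 and 30.72, or 31.5 ± 1.05 (SD, n = 2). Ythdf3 (chr3:16183212-16217037, plus strand) had 31.93 and 28.40, and the ranges of the pair overlap. Ythdf2 (chr4:132184912-132212303, minus strand) had 9.84 and 7.59, so Ythdf3 exceeded it 3.24 and 3.74 times. The third YTHDF gene, Ythdf1, had 6.48 and 4.34, and within both libraries the order was Ythdf3, Ythdf2, Ythdf1. The other YTHDC gene, Ythdc2, a helicase known from germ cells, had 3.36 and 1.82, and Ythdc1 exceeded it 9.58 and 16.9 times.

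The erasers were close to each other. Fto (chr8:91313525-91668439, plus strand) had a TPM of 14.68 and 11.25 and Alkbh5 (chr11:60536381-60558512, plus strand) had 12.02 and 9.45. Fto was 1.21 ± 0.0218 times Alkbh5 within a library (SD, n = 2), though the ranges over libraries, which include the shared shift, overlap. The order turned round without length correction, where the ratio was 0.864 ± 0.0133. The Fto locus holds 8 other annotated gene entries, the most highly counted of which, Gm45290 on the opposite strand, had 603 and 477 counts beside 1413.96 and 1033.97 for Fto. Without a stated strand setting, reads from Fto introns and from opposite-strand entries cannot be told apart where they overlap. Other entries lie on the strand of Fto, such as Gm45294 with 218 and 194 counts, and no strand setting would separate those.

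Taking neighbours in the order of mean TPM, the library ranges were apart at 3 of the 9 steps: Wtap above Ythdc1, Ythdf3 above Rbm15 and Zc3h13 above Mettl14. These ranges include the shared TPM shift, which a comparison within each library leaves out. Within libraries, the order of Rbm15 and Fto, and that of Mettl3 and Zc3h13, differed, and every other step kept its order. On the log2 scale, Ythdf2 over Mettl3 was 0.343 ± 0.042, Alkbh5 over Ythdf2 0.302 ± 0.019 and Fto over Alkbh5 0.270 ± 0.026 (SD, n = 2). Ythdc1 over Ythdf3 was 0.063 ± 0.072. Not all of these steps held in the second transcript table. As folds, Ythdf2 over Mettl3 was 0.769 and 0.687 there, and Ythdc1 over Ythdf3 was 0.791 and 0.882. Alkbh5 over Ythdf2 was 0.927 and 1.05, so its order differed between the libraries. Fto over Alkbh5 kept its order, at 1.20 and 1.11. Wtap at the top and Mettl14 at the bottom held in both libraries and in the second transcript table. In CPM, which favours long genes, Mettl14 was still last, whereas Ythdf3 and Ythdc1 stood above Wtap.

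Of 22 further genes of m6A biology, given as a whole list, 20 reached a TPM of 1 in both libraries, and their median on the log2(TPM + 1) scale was 2.51 ± 0.18 (SD, n = 2), below that of the 10 genes. The other methyltransferases ranged widely. Mettl16, which methylates U6 RNA and Mat2a, had a TPM of 1.59 and 1.38, Mettl4 had 1.44 and 1.05, and the ribosomal RNA methyltransferase Mettl5 had 2.18 and 1.30. Its activator Trmt112 had 16.36 and 11.59, Zcchc4 had 4.17 and 3.38, and the cap methyltransferase Pcif1 had 8.65 in both. The highest of the list encode RNA-binding proteins proposed as readers: Hnrnpa2b1 at 353.18 and 240.77, Hnrnpc at 59.29 and 53.99 and Prrc2a at 49.44 and 33.68. Fmr1 had 26.33 and 16.01 and Rbmx 6.54 and 5.83. Mat2a, which makes the methyl donor S-adenosylmethionine, had 40.24 and 31.81, its regulatory subunit Mat2b had 4.03 and 4.04, and Ahcy, which clears the product S-adenosylhomocysteine, had 0.61 and 0.94. Of the IGF2BP readers, Igf2bp3 had 1.97 and 3.06. Igf2bp1, with 3 and 0 counts, and Ahcy were the 2 genes that fell short of a TPM of 1.

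By TPM, all 10 genes were lower in replicate 2, with a median of -0.38 on the log2 scale, close to the -0.42 of coding genes in general. After normalisation of the counts by TMM, which removes such a shared shift, 6 of the 10 were higher in replicate 2 and the median of the 10 was 0.06. No member differed by more than 2-fold between the libraries, as 1.18% of 10088 genes with a mean count of at least 50 did. Ythdf3 had normalised counts of 3013 and 3493 and Ythdc1 2411 and 2777, ratios of 0.21 and 0.20 on the log2 scale. These ratios were 0.07 and 0.10 in the second transcript table. Mettl14 was the farthest from 0, with normalised counts of 165 and 123 and a ratio of -0.42, but only -0.04 in the second transcript table. By TPM, the second transcript table also had Mettl14 lower in replicate 2, at 0.833 and 0.683. The size of its difference between the libraries thus depended on the quantification and on the measure.

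**Figure D2:**
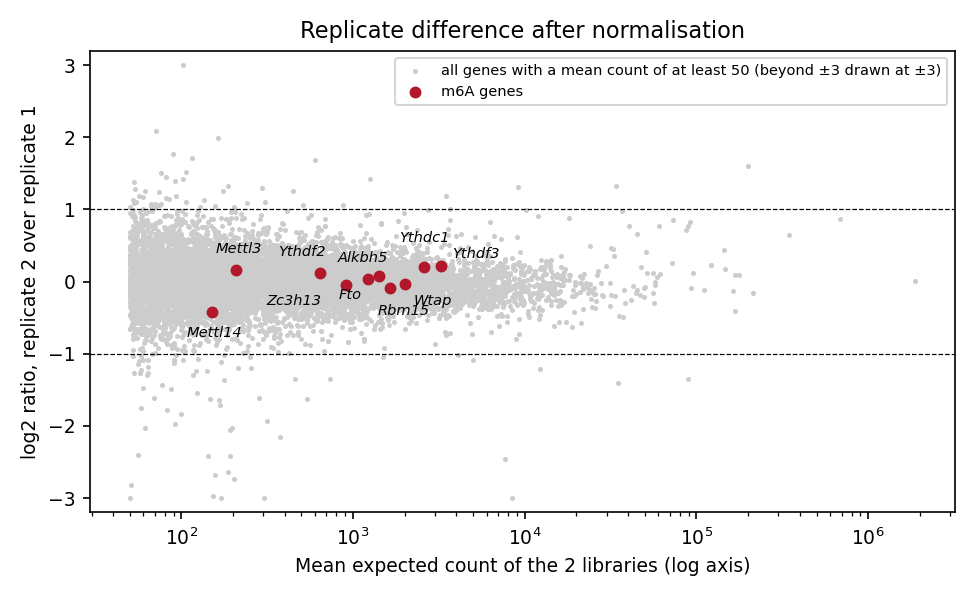
Log2 ratio of normalised counts, replicate 2 over replicate 1, against the mean expected count (log axis). Grey points are 10088 genes, red points the 10 m6A genes and dashed lines mark 2-fold; the m6A genes lie between -0.42 (Mettl14) and 0.21 (Ythdf3).

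The annotated transcripts showed how each gene's nuclear RNA was divided. The 10 genes have 61 annotated transcripts, of which 28 reached a TPM of 1 in both libraries and 15 were at 0 in both. These shares were not computed over all annotated transcripts, so they cannot be read as particular to the 10 genes. Reads shared between transcripts are divided by estimation. Reads inside an intron cannot show whether they come from a transcript that keeps it for good or from RNA that will still be spliced. The authors' deposited intervals on TPM, whose level is not stated in the sources used here, did not overlap between the libraries for 15 of the 61 transcripts. The same share over all annotated transcripts was not computed, so 15 of 61 cannot be read as particular to these genes. Of these 15, 14 were lower in replicate 2, which is the direction of the shared TPM shift. The exception was Ythdc1-204.

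**Figure D3:**
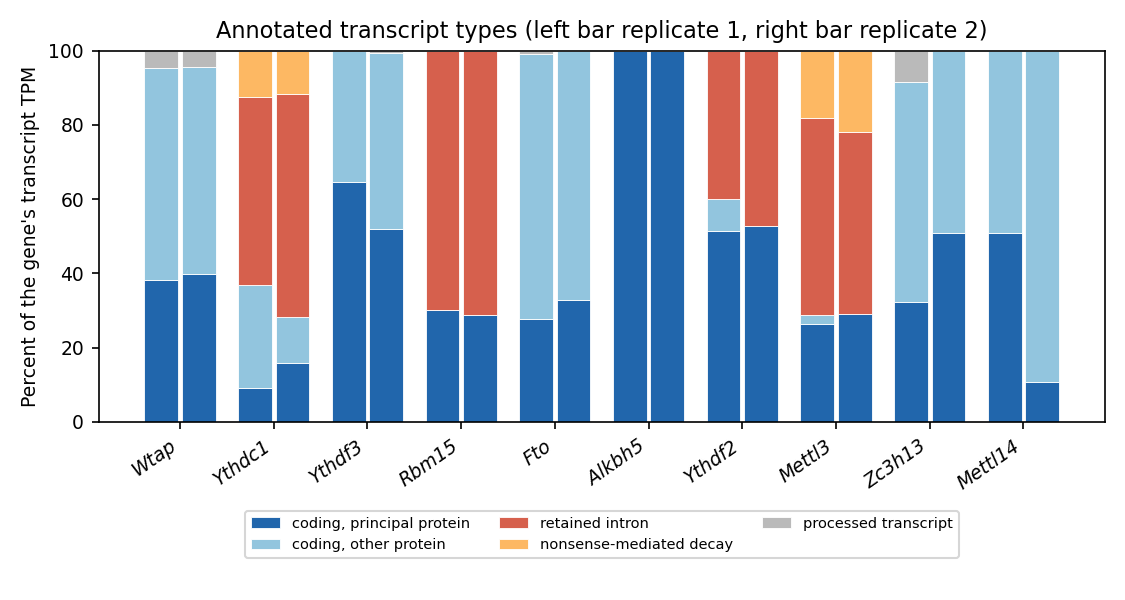
Percent of each gene's transcript TPM in annotated types, with replicate 1 as the left bar and replicate 2 as the right bar of each pair. Retained-intron transcripts take 69.8% and 71.3% of Rbm15, and transcripts of the principal protein take 100% of Alkbh5.

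Rbm15 stood out by its retained intron. Of its 2 annotated transcripts, the spliced Rbm15-201, which encodes the protein of 962 codons, had TPM values of 4.63 and 3.08. Rbm15-202, annotated as a retained-intron transcript, had 10.69 and 7.66, or 2.31 and 2.49 times as much. It runs without a break from the coding exon through the 5′ splice site printed above into the single intron (chr3:107326305-107330214) and covers 3080 of its 3910 bases. The share of Rbm15 TPM on it was 69.8% and 71.3%. It was 63.9% and 68.5% in the second transcript table and 76.3% and 77.6% by expected counts, so most Rbm15 nuclear RNA was assigned to the form with the intron under each measure.

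Ythdc1 had its RNA spread over 8 annotated transcripts that were above 0 in both libraries. The transcript of the principal protein (the main protein isoform in the APPRIS tags of the annotation), Ythdc1-201 with 736 codons, had a TPM of 2.94 and 4.84. Ythdc1-203, which encodes 728 codons, had 8.48 and 3.55, so the libraries disagreed on which coding transcript was higher. In the second transcript table Ythdc1-203 was the higher in both, 4.56 and 1.80 times Ythdc1-201. Retained-intron transcripts held 50.8% and 60.0% of the gene. Ythdc1-207, at 5.44 and 5.33, keeps introns 11 and 12 whole (chr5:86828122-86830553 and chr5:86830637-86831663). Ythdc1-209, at 5.19 and 3.23, lies wholly inside intron 1. Ythdc1-206, at 3.67 and 2.96, covers most of intron 9 and then runs past the exon 11 boundary, and Ythdc1-208, annotated for nonsense-mediated decay, at 3.99 and 3.59, also enters intron 11. The 5′ splice site of intron 11 was thus read through in 3 annotated forms with a TPM above 2 in both libraries. The difference between 50.8% and 60.0% went with Ythdc1-204, at 2.07 and 6.92. Only 10 of its 1246 bases lie outside coding exons, and without it the share was 44.4% and 37.5%.

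Mettl3 had 5 retained-intron transcripts with a TPM above 0, which together held 53.3% and 49.0%. The highest, Mettl3-215 at 1.75 and 1.11, runs from the first exon into intron 1 (chr14:52300402-52304887). In the second transcript table Mettl3-203, which enters intron 6, was higher, at 2.35 and 2.66 against 0.952 and 1.44. The transcript of the full protein, Mettl3-201 with 580 codons, had 2.01 and 1.77, or 26.4% and 29.0% of the gene, and transcripts annotated for nonsense-mediated decay held 18.0% and 22%. The retained-intron share of Mettl3 was the least settled of the 4, at 61.4% and 71.2% in the second transcript table but 39.1% and 32.7% by expected counts.

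In Ythdf2 the retained intron is a short one near the start of the gene. Ythdf2-202 keeps intron 1 whole (chr4:132211457-132211899, 443 bases) and had a TPM of 3.94 and 3.59, against 5.06 and 4.0 for Ythdf2-203, which encodes the protein of 579 codons. Its share was 40.0% and 47.3%. The coding transcript was higher in both libraries in the first transcript table, and lower in both in the second, where the ratio of Ythdf2-203 to Ythdf2-202 was 0.884 and 0.847.

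Read against all genes, Rbm15 and Ythdc1 were the 2 of 5 members with an annotated retained-intron transcript that had a share of at least 50% in both libraries. The same was true of 13.9% of 5609 protein-coding genes with such a transcript and a TPM of at least 1, whose median share was 27.4%. Rbm15 ranked 222 and 248 among these 5609. Ythdc1 was at 49.3% and 49.2% in the second transcript table, just under the threshold, and Mettl3 at 49.0% in replicate 2 was just under it too. Without Ythdc1-204, the share of Ythdc1 was 44.4% and 37.5% in the first transcript table. The fifth gene, Mettl14, had its only such transcript at 0 in both libraries. For the other 5, Wtap, Zc3h13, Ythdf3, Alkbh5 and Fto, the annotation names no retained-intron transcript.

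An absent label did not mean absent intron sequence, because coding transcripts of Wtap, Fto and Mettl14 also run into introns. In Wtap, the transcripts of the full protein of 396 codons, Wtap-201 and Wtap-203, together had a TPM of 20.63 and 15.37, or 38.1% and 39.9% of the gene. Wtap-204 alone had 16.74 and 12.85. Its last exon runs past the printed 5′ splice site into intron 6 (chr17:12969560-12975295) over 2611 bases, and its reading frame ends at 151 codons. Wtap-204 was higher than Wtap-203 in both libraries, 1.35 and 1.16 times, and it was 1.58 and 1.12 times in the second transcript table. A further 8.69 and 4.21 was assigned to Wtap-206, a short incomplete transcript that begins inside intron 2, which rested on 78 and 35 counts. By TPM Wtap was the highest of the 10 genes, and more than 50% of that level was outside transcripts of the full protein. That part includes Wtap-206 and Wtap-207, the latter at 3.94 and 4.05, whose coding parts are incomplete in the annotation. The protein that these 2 would encode is thus not known here. By expected counts, transcripts of the full protein held 39.3% and 40.0% of Wtap.

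**Figure D4:**
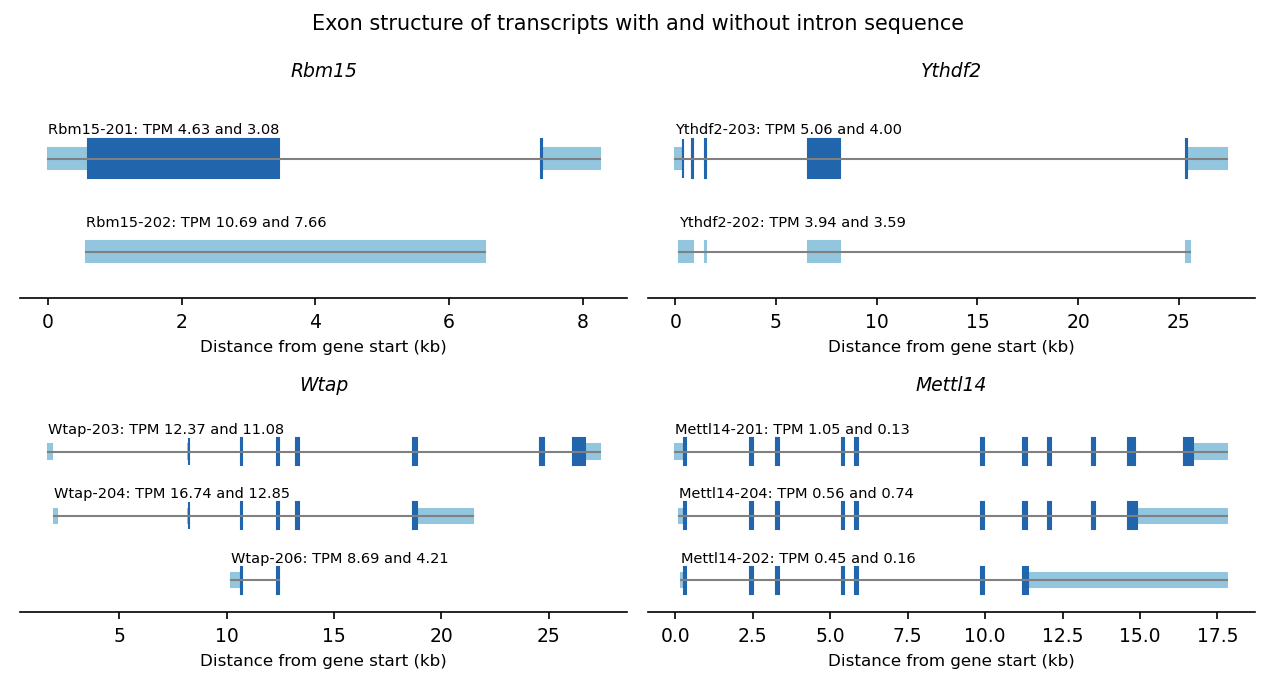
Exons (light blue) and coding parts (dark blue) of transcripts of Rbm15, Ythdf2, Wtap and Mettl14, drawn to scale by distance from the gene start in kb, with TPM in replicate 1 and replicate 2. Rbm15-202, Ythdf2-202, Wtap-204, Wtap-206, Mettl14-204 and Mettl14-202 contain sequence that the first transcript of each gene splices out.

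Fto showed the same arrangement at its 3′ end. Fto-201, which encodes the full protein of 502 codons, had a TPM of 4.08 and 3.69, or 27.8% and 32.8% of the gene. Fto-203 had 7.21 and 5.65, which was 1.77 and 1.53 times Fto-201. It ends inside intron 8 (chr8:91522897-91666281), the largest intron shown here, with 3334 of its 143385 bases in the last exon, and encodes 481 codons. Fto-204, which ends inside intron 7 and encodes 413 codons, had 2.64 and 1.63. In the second transcript table Fto-203 was again the higher, 1.83 and 1.66 times Fto-201.

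In Mettl14, the transcript of the full protein of 456 codons was the most uneven between libraries. Mettl14-201 had TPM values of 1.05 and 0.13, with 65.12 and 7.65 expected counts, and the authors' intervals did not overlap. Mettl14-204, which keeps intron 10 whole (chr3:123369691-123371274, 1584 bases) and encodes 377 codons, had 0.56 and 0.74. Mettl14-202, which keeps introns 7 to 10 and encodes 217 codons, had 0.45 and 0.16. The second transcript table divided the gene differently: Mettl14-204 was at 0 and 0.0837 there, Mettl14-202 at 0.374 and 0.434 and Mettl14-201 at 0.459 and 0.165. The full-length share was therefore 51.0% and 10.8%, and 55.1% and 24.2% in the second transcript table. With so few counts, the level of the full-length form in a single library was not determined closely.

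The coding transcripts of Ythdf3 and of Zc3h13 differ by few codons, and Alkbh5 has 1 coding transcript. Alkbh5-201, with 395 codons, held the whole TPM of its gene in the first transcript table, at 12.02 and 9.45. Ythdf3-201, with 585 codons, had 20.62 and 14.74, ahead of Ythdf3-202 with 596 codons at 6.90 and 8.33 and Ythdf3-203 with 589 codons at 4.41 and 5.15. In the second transcript table Ythdf3-201 was at 5.0 and 4.98, above Ythdf3-202 at 3.48 and 3.99. Its lead over Ythdf3-203, at 4.34 and 5.54 there, was small in replicate 1 and turned round in replicate 2. Zc3h13-201 and Zc3h13-203 encode 1729 and 1730 codons. They had 2.60 and 2.74 against 4.78 and 2.64, so which was higher differed between the libraries. Zc3h13-203 was the higher in both in the second transcript table, 1.62 and 1.24 times Zc3h13-201. That table also put 26.4% and 24.2% of Zc3h13, and 23.9% and 14.8% of Ythdf3, on transcripts annotated as processed, which encode no protein; in the first table these shares were 8.32% and 0% for Zc3h13 and 0% and 0.634% for Ythdf3.

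The share of each gene's TPM on transcripts of the principal protein was 100% for Alkbh5 in the first transcript table. It was 64.6% and 51.9% for Ythdf3 and 51.4% and 52.7% for Ythdf2, 38.1% and 39.9% for Wtap, 32.3% and 50.9% for Zc3h13, and 51.0% and 10.8% for Mettl14. It was 30.2% and 28.7% for Rbm15, 27.8% and 32.8% for Fto and 26.4% and 29.0% for Mettl3. It was lowest for Ythdc1, at 9.13% and 15.8%, though Ythdc1-203 differs from the principal form by few codons. In 5 genes, Wtap, Rbm15, Ythdc1, Fto and Mettl3, the share was under 50% in both libraries. In the second transcript table this held for 8 genes, the same 5 together with Ythdf3 at 29.7% and 29.2%, Ythdf2 at 32.2% and 34.3%, and Zc3h13 at 28.1% and 33.8%. The share of Mettl3 was 11.6% and 12.8% there. A transcript whose coding sequence differs at all from the principal one is left out of this share. In Ythdf3 and Zc3h13 such transcripts differ by few codons. All coding transcripts together held 76.1% and 85.2% of Ythdf3, and 73.6% and 75.8% of Zc3h13, in the second transcript table. Principal-protein shares were not computed for other genes, so whether shares under 50% are usual in these libraries is not known here.

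**Figure D5:**
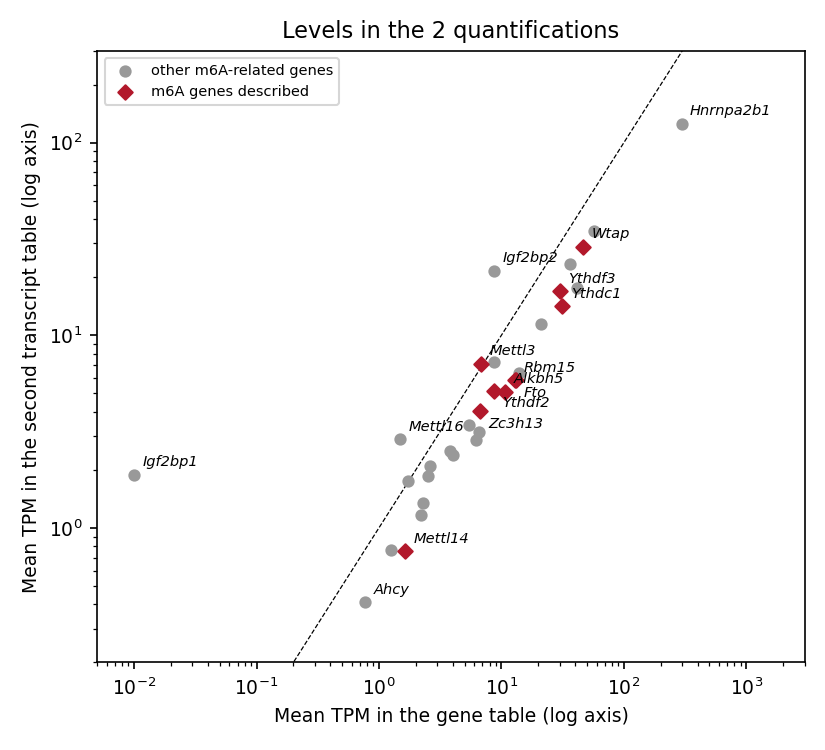
Mean TPM over both libraries in the gene table (horizontal) and in the second transcript table summed per gene (vertical), both on log axes, for the 10 m6A genes (red) and 22 further genes (grey); the dashed line is equality. Mettl3 lies at 6.86 and 7.10 and Wtap at 46.4 and 28.9, while Igf2bp1 lies far above the line.

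The second transcript table gave a lower mean level for 9 of the 10 genes, and Mettl3 was the exception. Wtap was 27.9 and 29.9 there, and Mettl14 0.833 and 0.683. Mettl3 was 6.62 and 7.58, which moved it from the eighth to the fourth place among the 10. There, 2 of the 10 genes were lower in replicate 2, Mettl14 and Rbm15, against all 10 in the gene table.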

How the data were processed

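Total RNA of 2 libraries was quantified by the authors on mm10 with GENCODE M21, per the file headers and the submitters' processing notes; names of aligner and quantifiers, and the strand setting, are not stated there. The gene and first transcript tables hold expected counts, estimated and not normalised, and TPM with intervals, as deposited by the authors. The second transcript table holds estimated counts and TPM, as deposited by the authors. Its values were summed per gene here. Rows naming no gene, 0.662% and 0.232% of the counts, were left out. With 1 group no test was possible: values are given per library and as mean ± SD. A count of 0 is read against a floor of 3 counts, or 0.142 and 0.192 CPM, for counting error only. For replicate ratios, counts were rounded, normalised by TMM (edgeR 4.0.16, R 4.3.3) for genes with a mean count of at least 50, and 0.5 was added; the step was tested on simulated data. Alternatives were DESeq2 1.42.0 size factors, count filters, CPM (counts scaled to library size), TPM rescaled over protein-coding genes, a pseudocount of 0.1 in place of 1, the second table and each library alone. Members, lists and the rule for naming genes and transcripts (all listed genes, and the highest transcript of each type per member) were chosen with earlier results of these data known. The principal-protein shares, the intron boundaries and the further transcripts named were chosen after their values were seen. Sequences come from GENCODE M21.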

Additional observations from a re-analysis of the deposited data

How the results depend on the processing

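The median level of the 10 genes on the log2(TPM + 1) scale, 3.65, was 2.78 in the second transcript table and 5.75 after rescaling over protein-coding genes, and 3.47 to 3.84 in single libraries. That of the 22 further genes, 2.51, was 1.94 in the second table and 2.25 with a pseudocount of 0.1. At a TPM of 10 in place of 1, 5 of the 10 genes remained in both libraries. Beside them stood 14.4% of protein-coding genes, and 36.9% of those at a TPM of 1 in both. Wtap over Mettl3, 6.72, was 4.07 in the second table and 9.52 in CPM. The retained-intron percent in the second table and by expected counts was 66.3 and 35.9 for Mettl3, 66.2 and 76.9 for Rbm15, and 38.5 and 32.8 for Ythdf2. The cause of these moves was not tested. Among the 10 places by level, 7 moved in CPM, 6 in the second table and 2 after rescaling. The size factors of DESeq2 left no member beyond 2-fold. Depth limits Mettl14 and Mettl3, with the fewest counts. No paired analysis was possible because there is 1 group.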

Other observations

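Most of the listed m6A genes were lower in the second transcript table than in the gene table, but Igf2bp1, Igf2bp2 and Mettl16 were clearly higher there. Igf2bp1 had 3 and 0 counts in the gene table, a TPM of 0.02 and 0, but 1.72 and 2.05 in the second transcript table. Igf2bp2 had 9.59 and 7.93 in the gene table and 17.7 and 25.6 in the second. Mettl16 had 1.59 and 1.38 in the gene table and 2.51 and 3.25 in the second. Igf2bp3 did not share this, at 1.97 and 3.06 in the gene table and 1.22 and 2.52 in the second. None of the 10 writers, readers and erasers described above differed between the tables in this direction by as much: Mettl3, the only one higher in the second table, had means of 6.86 and 7.10.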
